A study of Homo sapiens with 6 samples.

Results

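HFL-1, an established fibroblast line from human fetal lung, received one of 2 siRNAs against TAZ, siTAZ #1 or siTAZ #2, and the 2 libraries of siTAZ #1 are compared here directly with the 2 libraries of siTAZ #2. The comparison covered 22184 of the 23355 genes that the deposited table lists by symbol. The other 1171 genes, on chromosome 22 from RANGAP1 to its end and on X and Y, were left out because their counts were nearly missing in replicate 2 of siTAZ #1. Cells transfected with the non-targeting control siNTC, also in 2 libraries, are given for reference, and RNA was taken 48 h after transfection in all groups. All groups were transfected with an siRNA and are 1 cell line. The siTAZ groups stand for transient lowering of the transcript in cultured fibroblasts, and siNTC for transfection without it. The study's methods describe duplicate transfections for the TAZ siRNAs, and neither they nor the labels say more of how the libraries of a group are related. The p-values therefore measure only the spread between these libraries, which may be technical.

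TAZ, the product of WWTR1, is a transcriptional coactivator that enters the nucleus when the Hippo kinases are inactive or when cells spread on a stiff substrate, and there binds the TEAD factors. In lung fibroblasts it is known for its targets among matrix and growth factor genes. An siRNA loads onto an Argonaute protein and directs it to a matching transcript, and it can also lower other transcripts through partial pairing, so 2 siRNAs share their intended target but not necessarily the rest of what they change.

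Counts on the genes compared summed to between 15087670 and 31998591 per library, the highest in siTAZ #1 replicate 2. The genes left out held 0.248% of the counts in that library and 3.58% to 3.75% in the other 5. Levels are given as CPM, the counts of a gene relative to its library's total after TMM scaling, and differences as log2 differences, siTAZ #1 minus siTAZ #2, with their standard error (SE). A value alone in brackets after a gene, or by which genes are said to differ, is a log2 difference of a gene called. Across the 10744 genes at 5 CPM or more, the median SD between the libraries of a group was 9.22% of the mean for siTAZ #1, 7.55% for siTAZ #2 and 5.86% for siNTC. The 12 fibroblast markers summed to 31996 to 35151 CPM with siTAZ #1, 34712 to 36543 CPM with siTAZ #2 and 44710 to 44795 CPM with siNTC. EPCAM, CDH1, PECAM1, CDH5 and PTPRC, which define epithelium, endothelium and leukocytes, had between 0 and 51 counts in any library. The summed level of the 14 epithelial markers was 54.6 to 60.0 CPM with siTAZ #1, 72.6 to 77.3 CPM with siTAZ #2 and 57.6 to 59.1 CPM with siNTC, and the 10 leukocyte markers, carried almost wholly by CD68, summed to 70.4 to 79.0, 40.0 to 50.9 and 77.4 to 78.5 CPM. The part of these markers in the differences below was not tested.

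The siRNAs left different amounts of their target. WWTR1 (chromosome 3, 149235022 to 149454501, GRCh37) was at 27.3 and 28.7 CPM with siTAZ #1, 47.8 and 44.6 CPM with siTAZ #2 and 137 and 136 CPM with siNTC. Every siTAZ library was below the controls, and both siTAZ #1 libraries were below both siTAZ #2 libraries (log2 difference -0.72, SE 0.12, FDR 0.000248). Beyond the target, 13455 genes passed the filter on low counts, and the siRNAs separated a large share of them. At an FDR under 0.05 in edgeR's quasi-likelihood test, 2614 genes were higher with siTAZ #1 (19.4% of those tested) and 2499 were lower (18.6%), together 5113 genes or 38%. Of these, 824 were at least 2-fold higher and 810 at least 2-fold lower. Without any test, both siTAZ #1 libraries lay above both siTAZ #2 libraries for 32.9% of the genes and below them for 33.3%. The genes called differed by a median of 0.75 on the log2 scale, irrespective of sign, and 8 of them had overlapping libraries.

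For 1498 of the genes called higher and 1347 of those called lower, the siNTC mean lay between the means of the siRNAs, so that one siRNA was above the control and the other below it. That was 55.6% of the genes called, against 33.9% of all genes tested. Genes were called for a wide gap between the siRNAs, and a wide gap by itself makes a mean between them more likely. The larger share among the genes called is therefore no separate result. The siNTC mean was above both siRNAs for 729 genes higher with siTAZ #1 and 466 lower with it, and below both for 387 and 686.

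The largest differences in favour of siTAZ #1, among genes with a mean of 10 CPM or more in the siTAZ #1 group, were led by inflammatory genes. A gene such as IL1B passed that minimum only through the group where it was high. IL1B, a secreted cytokine of innate immunity, was at 11.6 and 9.86 CPM with siTAZ #1, 0.0969 and 0.0626 CPM with siTAZ #2 and 0.591 and 0.981 CPM with siNTC. Its siTAZ #2 values rest on 2 counts and 1 count, against 491 counts in the siTAZ #1 libraries, a ratio of 127 with a 95% counting interval of 43.2 to 618. IL1R1, the signalling receptor for that cytokine (chromosome 2, 102681004 to 102796334), was at 536 and 543 CPM with siTAZ #1, 24.4 and 27.7 CPM with siTAZ #2 and 125 and 133 CPM with siNTC. The siRNAs thus lay on opposite sides of the control with no overlap, and the level with siTAZ #1 was 20.7-fold that with siTAZ #2 (log2 difference 4.37, SE 0.12, FDR 1.02e-11). The other 8 were CBLN2, the protease inhibitor SERPINB2, the chemokines CXCL1 and IL8 (the current CXCL8), the prostaglandin synthase PTGS2, the CCN family member NOV (CCN3), the Notch ligand DLL4 and the mesenchymal homeobox gene PRRX1, with log2 differences from 3.30 (IL8) to 4.31 (CBLN2).

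The 10 largest differences in the other direction, among genes with a mean of 10 CPM or more in the siTAZ #2 group, were of more varied kind. RASGRP3, an exchange factor for Ras, was at 1.54 and 1.89 CPM with siTAZ #1, 33.8 and 34.3 CPM with siTAZ #2 and 3.29 and 2.55 CPM with siNTC. MEST, an imprinted gene, was at 12 and 15.8 CPM with siTAZ #1, 139.7 and 122 CPM with siTAZ #2 and 9.92 and 13.3 CPM with siNTC. The siTAZ #2 libraries stood far above both other groups in both genes, while siTAZ #1 was below siNTC for RASGRP3 and overlapped it for MEST (log2 difference -4.28, SE 0.25, FDR 1.23e-08 for RASGRP3 and log2 difference -3.22, SE 0.17, FDR 6.44e-09 for MEST). ADAM19, a membrane metalloprotease, was at 97.8 and 99.9 CPM with siTAZ #1, 818 and 922 CPM with siTAZ #2 and 189 and 197 CPM with siNTC, below the control with siTAZ #1 and above it with siTAZ #2 (log2 difference -3.14, SE 0.11, FDR 9.19e-11). ZNF358, ICOSLG, HHAT, SAMD11, AMIGO2, CPA4 and APOL1 completed the 10, with log2 differences from -3.59 (ZNF358) to -2.81 (APOL1).

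The rest of the comparison is described by gene lists. Of the 10744 genes at 5 CPM or more, 44% were called, and of the 1928 distinct genes of all lists 54.2% were called, 32.9% higher and 21.3% lower. Shares below are to be read against these values as well as against 38%.

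**Figure D1:**
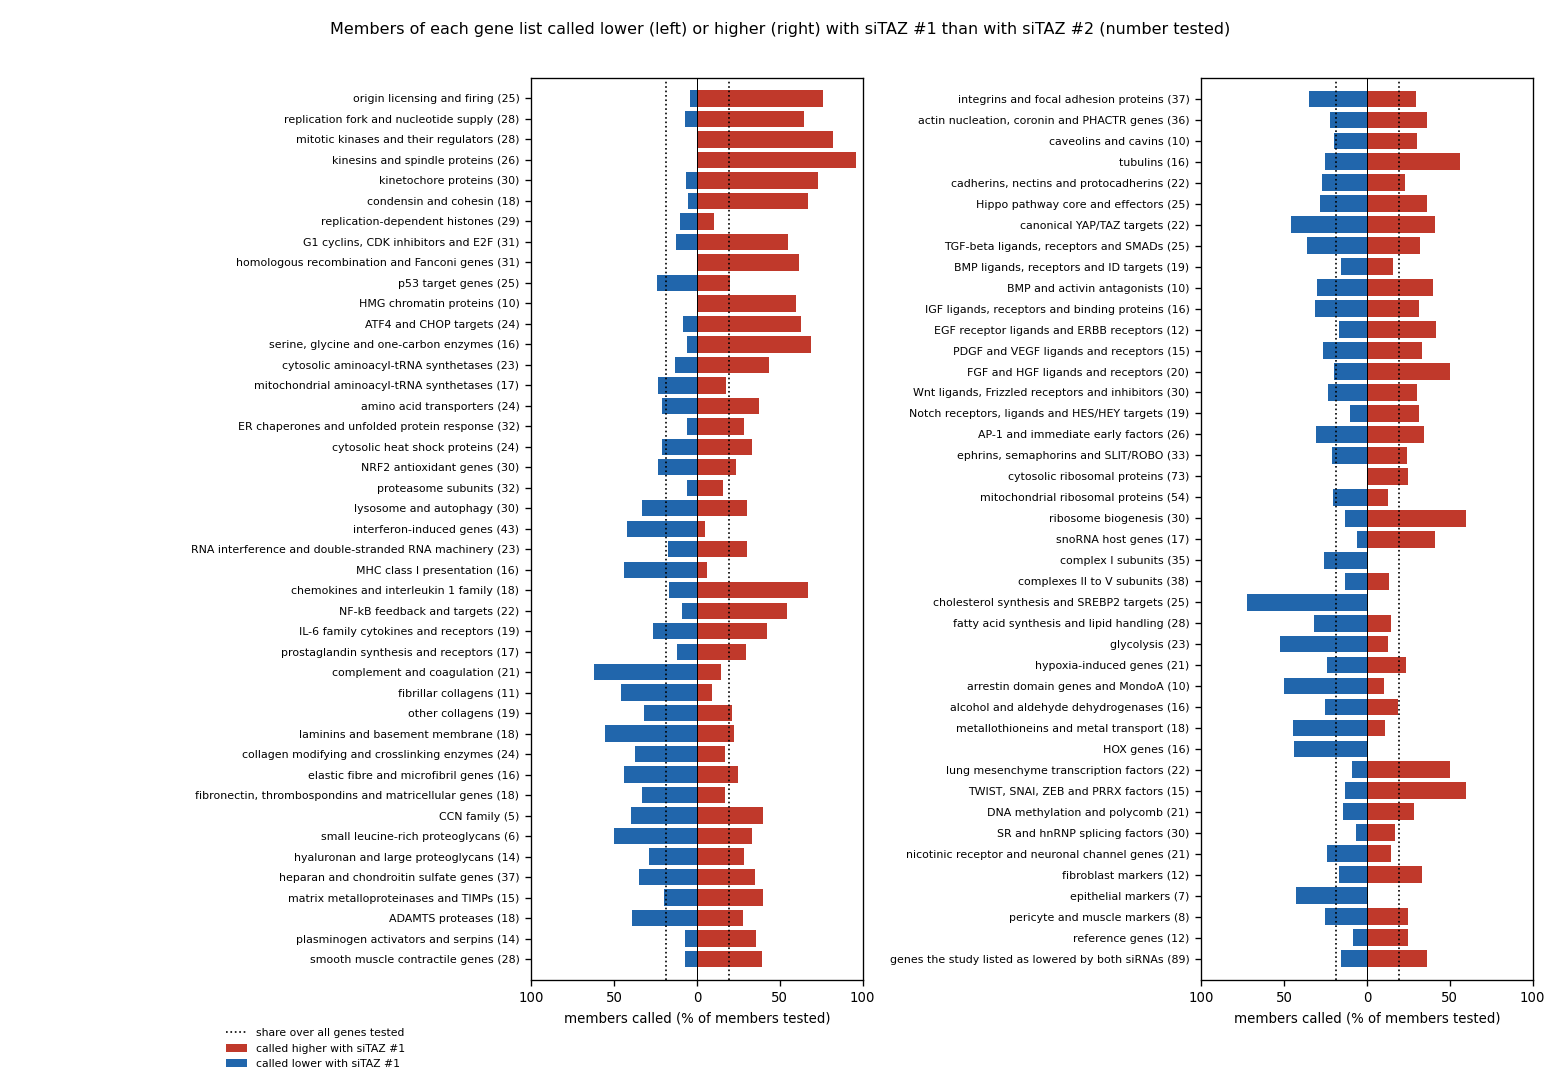
Percent of the tested members of each gene list shown (number in brackets) that were called lower (blue, to the left) or higher (red, to the right) with siTAZ #1. Dotted lines mark 19.4% and 18.6%, the shares of all genes tested. The replication and mitosis lists at the top extend almost only to the right, and the cholesterol, complement and glycolysis lists mainly to the left.

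Genes of the cell cycle were higher with siTAZ #1 in nearly every list. Over 7 lists of replication, mitosis and recombination genes, 186 genes in all, 138 (74.2%) were higher with siTAZ #1 and 6 lower, with a median log2 difference of 0.81, and 73 were at least 2-fold higher. The siNTC mean lay between the siRNAs for 111 of the 138, above both for 25 and below both for 2. In cultures measured in bulk, fewer cycling cells and less RNA per cell cannot be told apart. CDKN1A, which encodes the CDK inhibitor p21 (chromosome 6, 36644237 to 36655114), went the other way. It was at 689 and 586 CPM with siTAZ #1, 3257 and 3601 CPM with siTAZ #2 and 856 and 791 CPM with siNTC. Levels with siTAZ #1 were somewhat below the control and those with siTAZ #2 far above it, 5.38-fold those of siTAZ #1 (log2 difference -2.43, SE 0.11, FDR 6.94e-10). Of the 31 G1 cyclins, CDK inhibitors and E2F factors, 17 were higher with siTAZ #1 and 4 lower (2 lower without siTAZ #2 replicate 1). E2F2, an activator of S phase genes, was at 13.8 and 10.5 CPM with siTAZ #1, 2.47 and 2.19 CPM with siTAZ #2 and 10.3 and 7.46 CPM with siNTC (log2 difference 2.37, SE 0.29, FDR 1.5e-05), and the repressor E2F8 and the cyclin CCND2 were higher as well (log2 differences 1.72 and 1.53). CDKN1A did not stand for the CDK inhibitors of this list. CDKN1B, CDKN2A, CDKN2C and CDKN3 were called higher with siTAZ #1, as were RBL1 and RBL2, while RB1 and the kinase CDK6 were lower (named after their values were seen).

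Origin licensing, the loading of the MCM helicase before S phase, had 19 of 25 members higher with siTAZ #1 and 1, ORC2, lower (a call lost without siTAZ #1 replicate 1 or siTAZ #2 replicate 1). MCM10, which helps to start the helicase, was at 53.5 and 42.5 CPM with siTAZ #1, 17.4 and 18.1 CPM with siTAZ #2 and 35.8 and 42.7 CPM with siNTC. Here siTAZ #1 was close to the control and siTAZ #2 was below it (log2 difference 1.43, SE 0.16, FDR 7.64e-06). GMNN, the geminin that blocks relicensing, and CDC6, which loads the helicase, differed by 1.75 and 1.27. At the replication fork, 18 of 28 genes were higher and 2 lower, with 11 higher without siTAZ #2 replicate 2 and 1 lower without siTAZ #2 replicate 1. FEN1, the flap nuclease, was at 90.3 and 93.5 CPM with siTAZ #1, 45.5 and 42.5 CPM with siTAZ #2 and 85 and 74.7 CPM with siNTC (log2 difference 1.06, SE 0.12, FDR 7.87e-06), while the uracil glycosylase UNG was lower with siTAZ #1 (log2 difference -0.69, SE 0.15, FDR 0.00156). Homologous recombination and Fanconi genes, which repair broken and crosslinked DNA, had 19 of 31 members higher and 0 lower. FANCI was at 139 and 131 CPM with siTAZ #1, 43 and 42 CPM with siTAZ #2 and 80.1 and 94.5 CPM with siNTC, above the control with siTAZ #1 and below it with siTAZ #2 (log2 difference 1.67, SE 0.12, FDR 1.15e-07), and BRCA2, BLM and RAD54L differed by 1.63 to 1.66.

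Among mitotic kinases and their regulators, 23 of 28 were higher with siTAZ #1 and 0 lower, with a median of 1.28. BUB1B, a kinase of the spindle checkpoint, was at 101 and 102 CPM with siTAZ #1, 34.6 and 31.6 CPM with siTAZ #2 and 57.8 and 59.5 CPM with siNTC. It lay above the control with siTAZ #1 and below it with siTAZ #2 (log2 difference 1.62, SE 0.12, FDR 1.44e-07). The cyclin CCNA2 and the kinases TTK and PBK differed by 1.55 to 1.60. Of the kinesins and spindle proteins, 25 of 26 were higher and 0 lower, the highest share of any list with 5 or more members. CKAP2L, a spindle protein, was at 83.4 and 82.6 CPM with siTAZ #1, 20.1 and 20.7 CPM with siTAZ #2 and 54.5 and 56.9 CPM with siNTC (log2 difference 2.02, SE 0.13, FDR 3.06e-08), and KIF2C, which depolymerises microtubules, at 133 and 110.1 CPM with siTAZ #1, 36.4 and 35.4 CPM with siTAZ #2 and 117 and 111 CPM with siNTC (log2 difference 1.76, SE 0.13, FDR 9.48e-08). In KIF2C the siTAZ #1 libraries overlapped those of siNTC, whereas siTAZ #2 was apart from both. Kinetochore proteins had 22 of 30 members higher and 2 lower (1 without siTAZ #2 replicate 2), led by the centromeric histone CENPA (log2 difference 1.71, SE 0.22, FDR 2.29e-05), with ZWILCH lower (log2 difference -0.91, SE 0.16, FDR 0.00043). Condensin and cohesin had 12 of 18 higher and 1, the cohesin loader MAU2, lower.

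The promoters of the mitotic kinase, kinesin and kinetochore genes share short sequences, and those of CKAP2L and BUB1B are shown because these genes lead their lists and hold the match. The windows are RefSeq sequences on GRCh38.p14, 250 bases before to 50 bases after a transcript start, and 10315 of the genes tested could be matched to 15130 windows. Capitals mark TTTGAA, the core of the cell cycle homology region, read on either strand (TTCAAA is its reverse complement). CKAP2L is on the minus strand (chr2:112764560-112764859), with matches beginning 86 and 17 bases before the start, and BUB1B is on the plus strand (chr15:40160819-40161118), with a match 23 bases before it.
CKAP2L: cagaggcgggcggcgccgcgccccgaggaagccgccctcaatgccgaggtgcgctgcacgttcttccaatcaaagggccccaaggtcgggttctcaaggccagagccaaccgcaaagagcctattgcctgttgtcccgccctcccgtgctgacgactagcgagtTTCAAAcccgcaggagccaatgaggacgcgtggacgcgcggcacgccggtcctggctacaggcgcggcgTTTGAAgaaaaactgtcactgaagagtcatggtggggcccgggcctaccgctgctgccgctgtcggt
BUB1B: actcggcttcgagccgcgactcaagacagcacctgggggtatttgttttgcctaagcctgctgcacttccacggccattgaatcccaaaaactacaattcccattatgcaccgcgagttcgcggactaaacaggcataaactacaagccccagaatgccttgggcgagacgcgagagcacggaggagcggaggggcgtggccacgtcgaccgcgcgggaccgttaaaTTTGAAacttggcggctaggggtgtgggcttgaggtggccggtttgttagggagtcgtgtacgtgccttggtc
TTTGAA occurred in 43 of the 86 windows of these lists (50%) and in 10.7% of the windows of all genes tested. CCAAT, the box bound by NF-Y, occurred in 69.8% against 34.5%. It was not particular to these lists. It occurred in 72.7% of the windows of the cholesterol synthesis genes, whose called members were all lower with siTAZ #1. The shares were 47.6% for the chemokine and interleukin 1 genes and 45.7% for the ATF4 and CHOP targets. A match is a run of letters, and binding was not measured.

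Other genes around the cell cycle moved less uniformly. Of 10 HMG chromatin proteins, 6 were higher with siTAZ #1 and 0 lower. HMGB2 was at 333 and 314 CPM with siTAZ #1, 136 and 171 CPM with siTAZ #2 and 287 and 307 CPM with siNTC (log2 difference 1.08, SE 0.12, FDR 5.17e-06), HMGN2 differed by 1.10 and HMGA1 by 0.80, and these genes have processed pseudogenes that could share their reads. Replication-dependent histones, whose messages mostly lack a poly(A) tail, had 3 of 29 tested members higher (1 without siTAZ #1 replicate 1 or siTAZ #2 replicate 2) and 3 lower, and 32 more were too low to test. The share of tested histones called, 20.7%, was below the 38% of all genes tested. Of 25 p53 target genes, 5 were higher (20%) and 6 lower (24%), near the shares of 22.7% and 21.3% among genes at 5 CPM or more. Their median of -0.04 ran from -0.09 to 0.14 over the settings tried. Beside CDKN1A, RRM2B, a ribonucleotide reductase subunit, was at 106 and 138 CPM with siTAZ #1, 51.7 and 47.8 CPM with siTAZ #2 and 19.2 and 20.9 CPM with siNTC, above the control with both siRNAs and more so with siTAZ #1 (log2 difference 1.30, SE 0.14, FDR 4.45e-06), while SESN1 was lower with siTAZ #1 (-0.71).

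Most amino acid response genes were higher with siTAZ #1 as well. The transcription factor ATF4 is translated when amino acids run short or the endoplasmic reticulum is stressed and turns on genes of amino acid supply. Of 24 ATF4 and CHOP targets, 15 were higher with siTAZ #1 and 2 lower, with 9 higher without siTAZ #2 replicate 1, and 1 lower without siTAZ #1 replicate 1 or either siNTC library and 0 lower without siTAZ #2 replicate 2. The siNTC mean was above both siRNAs for 7 of the 15 and between them for 6. ATF4 was at 615 and 555 CPM with siTAZ #1, 241 and 248 CPM with siTAZ #2 and 539 and 553 CPM with siNTC. The siTAZ #1 libraries were slightly above the control and both siTAZ #2 libraries were far below it (log2 difference 1.26, SE 0.10, FDR 2.38e-07). CHAC1, which degrades glutathione, and CEBPB, a leucine zipper factor, differed by 1.41 and 1.35, while ATF3 was lower with siTAZ #1 (-0.83, FDR 0.0216), a call lost without siTAZ #1 replicate 1 (FDR 0.086) and without siTAZ #2 replicate 2 (FDR 0.204). Serine, glycine and one-carbon enzymes had 11 of 16 members higher and 1 lower. MTHFD1, of the folate cycle, was at 112 and 112 CPM with siTAZ #1, 52.3 and 48.1 CPM with siTAZ #2 and 111 and 104 CPM with siNTC (log2 difference 1.15, SE 0.12, FDR 1.99e-06).

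Cytosolic aminoacyl-tRNA synthetases, which charge tRNAs, had 10 of 23 members higher and 3 lower, led by AARS (log2 difference 1.07, SE 0.12, FDR 4.34e-06), and their mitochondrial counterparts 3 of 17 higher and 4 lower (2 lower without siTAZ #2 replicate 2). The mitochondrial share called, 41.2%, lay between the 38% of all genes tested and the 44% among genes at 5 CPM or more. Of 24 amino acid transporters, 9 were higher and 5 lower. The taurine carrier SLC6A6 was at 51.4 and 48.8 CPM with siTAZ #1, 164 and 170.3 CPM with siTAZ #2 and 109 and 114 CPM with siNTC (log2 difference -1.74, SE 0.11, FDR 3.17e-08) and the glycine carrier SLC6A9 was higher with siTAZ #1 (1.35). Among endoplasmic reticulum chaperones and unfolded protein response genes the share called was 34.4%, below the 38% of all genes tested. Endoplasmic reticulum chaperones and unfolded protein response genes had 9 of 32 higher and 2 lower (4 lower without siTAZ #1 replicate 1, 6 without siTAZ #1 replicate 2 and 5 with an offset for GC content), with EDEM3 higher (1.32) and the chaperone CANX lower (-1.07). Among 24 cytosolic heat shock proteins, 8 were higher and 5 lower, with 4 higher without siTAZ #2 replicate 2 and 2 or 3 lower without any 1 library. The small heat shock protein HSPB8 was at 3.94 and 5.98 CPM with siTAZ #1, 28.1 and 35.8 CPM with siTAZ #2 and 24.1 and 17.6 CPM with siNTC, with siTAZ #1 well below both other groups (log2 difference -2.65, SE 0.24, FDR 8.44e-07).

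**Figure D2:**
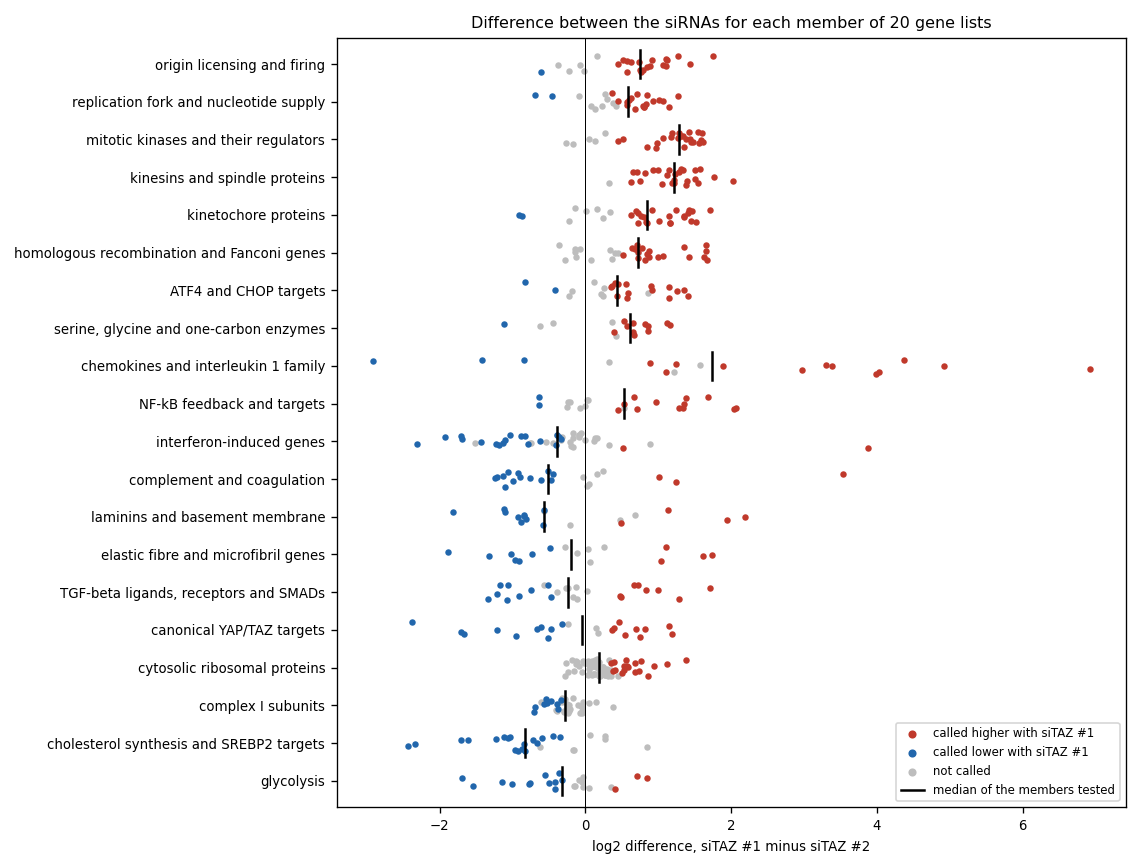
The log2 difference between siTAZ #1 and siTAZ #2 (horizontal axis) for each tested member of 20 gene lists (points, shifted vertically at random for visibility), with called members in red or blue, members not called in grey and the median of each list as a black bar. The medians of the mitotic lists lie at 1.28 and 1.21, that of the chemokine list at 1.73 with its highest member at 6.92, and that of the cholesterol list at -0.82.

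Of 175 genes of innate immunity and inflammation, 50 were higher with siTAZ #1 and 53 lower, and the siNTC mean lay between the siRNAs for 33 of the 50 and for 33 of the 53. The interleukin 1 receptor passes its signal to NF-kB, which turns on chemokines and its own inhibitors. Of 18 chemokines and interleukin 1 family genes tested, 12 were higher with siTAZ #1 and 3 lower, with a median of 1.73, and 8 were higher without siTAZ #2 replicate 1. The neutrophil chemokine CXCL1 was at 52.8 and 60.7 CPM with siTAZ #1, 3.10 and 3.88 CPM with siTAZ #2 and 14.6 and 15.1 CPM with siNTC (log2 difference 4.03, SE 0.20, FDR 2.58e-09). Another of that group, IL8, was at 74.1 and 137 CPM with siTAZ #1, 10.8 and 10.8 CPM with siTAZ #2 and 11 and 10.2 CPM with siNTC (log2 difference 3.30, SE 0.23, FDR 7.86e-08). For CXCL1 the siTAZ #1 libraries were above and the siTAZ #2 libraries below the control, whereas for IL8 the siTAZ #2 libraries lay at the level of the control. IL1RAP, the coreceptor of IL1R1, went the other way, at 14.5 and 11 CPM with siTAZ #1, 39.1 and 28.7 CPM with siTAZ #2 and 9.40 and 9.55 CPM with siNTC (log2 difference -1.42, SE 0.21, FDR 7.36e-05).

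Of 22 NF-kB feedback and target genes, 12 were higher with siTAZ #1 and 2 lower. TNIP1, which restrains NF-kB together with TNFAIP3, was at 121 and 119 CPM with siTAZ #1, 25 and 32.6 CPM with siTAZ #2 and 93.4 and 97.2 CPM with siNTC. The siTAZ #2 libraries were far below the control and the siTAZ #1 libraries somewhat above it (log2 difference 2.06, SE 0.14, FDR 4.28e-08). TNFAIP3 itself and the nuclear regulator NFKBIZ differed by 1.68 and 2.03. In the prostaglandin list, 5 of 17 genes were higher and 2 lower (1 lower without siTAZ #2 replicate 2). The share of that list called, 41.2%, lay between the 38% of all genes tested and the 44% among genes at 5 CPM or more. Its median of 0.03 changed sign in 10 of the 22 alternative settings. PTGS2, the inducible cyclooxygenase, was at 18.6 and 23.3 CPM with siTAZ #1, 1.45 and 1.69 CPM with siTAZ #2 and 4.01 and 6.67 CPM with siNTC (log2 difference 3.74, SE 0.31, FDR 3.22e-07), and PLA2G4A, the phospholipase that supplies its substrate, was higher too (log2 difference 1.46, SE 0.24, FDR 0.000225).

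The promoters of CXCL1 and IL8 are shown because these chemokines had large differences and their windows hold the match, with GGAATTTCC, a site form bound by NF-kB, in capitals. Both are on the plus strand of GRCh38.p14, CXCL1 at chr4:73869143-73869442 with the match beginning 78 bases before the start, and IL8, listed by RefSeq as CXCL8, at chr4:73740319-73740618 with the match beginning 91 bases before it.
CXCL1: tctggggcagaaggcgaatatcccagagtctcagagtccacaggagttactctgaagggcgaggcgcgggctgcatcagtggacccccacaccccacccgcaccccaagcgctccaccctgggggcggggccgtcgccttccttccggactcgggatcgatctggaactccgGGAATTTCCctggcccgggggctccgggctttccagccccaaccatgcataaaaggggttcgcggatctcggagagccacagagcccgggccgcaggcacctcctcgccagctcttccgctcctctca
IL8: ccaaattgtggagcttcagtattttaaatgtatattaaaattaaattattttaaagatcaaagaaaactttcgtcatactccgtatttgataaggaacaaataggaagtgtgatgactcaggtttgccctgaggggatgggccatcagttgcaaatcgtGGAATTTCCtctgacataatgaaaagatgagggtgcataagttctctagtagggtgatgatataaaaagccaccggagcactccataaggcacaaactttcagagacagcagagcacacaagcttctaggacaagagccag
Read on both strands, these letters occurred in 6 of the 21 windows of the chemokine and interleukin 1 genes (28.6%) and in 0.443% of the windows of all genes tested.

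The IL-6 family list was divided. Of 19 members, 8 were higher with siTAZ #1 and 5 lower (3 lower without siTAZ #1 replicate 2 or siTAZ #2 replicate 2). The cytokine IL6 was at 9.15 and 9.86 CPM with siTAZ #1, 3.78 and 2.82 CPM with siTAZ #2 and 0.723 and 2.29 CPM with siNTC (log2 difference 1.52, SE 0.38, FDR 0.00549). Both siRNAs lay above the control, siTAZ #1 more so, and the call was lost with the left-out genes in the fit (FDR 0.0591). STAT3, the transcription factor of this pathway, was at 130.3 and 113 CPM with siTAZ #1, 347 and 385 CPM with siTAZ #2 and 355 and 336 CPM with siNTC, and the siTAZ #1 libraries alone were below the control (log2 difference -1.59, SE 0.11, FDR 7.86e-08). The oncostatin receptor OSMR was lower as well (log2 difference -1.64, SE 0.13, FDR 2.53e-07).

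Interferon-induced genes that were called were mostly lower with siTAZ #1. Of 43 tested, 18 (41.9%) were lower with siTAZ #1 and 2 higher (1 without either siNTC library, siTAZ #1 replicate 1 or siTAZ #2 replicate 1), with a median of -0.39. The number lower was 11 without siTAZ #1 replicate 2 and 10 without siTAZ #2 replicate 2. TRIM22, an antiviral ubiquitin ligase, was at 46.2 and 47 CPM with siTAZ #1, 114 and 106 CPM with siTAZ #2 and 40.4 and 37.5 CPM with siNTC. The siTAZ #1 libraries lay just above the control and the siTAZ #2 libraries far above it (log2 difference -1.23, SE 0.12, FDR 1.57e-06). SAMD9L was at 5.01 and 9.43 CPM with siTAZ #1, 34 and 22.6 CPM with siTAZ #2 and 18.3 and 18.2 CPM with siNTC (log2 difference -1.93, SE 0.27, FDR 4.33e-05), below the control with siTAZ #1, and IFI44 differed by -1.70. MHC class I presentation had 7 of 16 members lower and 1 higher, with the peptide editors TAPBPL and TAPBP lower (-1.37 and -0.70). The 1 gene higher was B2M (0.26, FDR 0.0466), a call that was lost in 13 of the 22 alternative settings. RNA interference and double-stranded RNA genes, which include the sensors and effectors of siRNAs, had 7 of 23 members higher and 4 lower (2 lower without siTAZ #1 replicate 2 or siTAZ #2 replicate 2). The share of that list called, 47.8%, was near the 44% among genes at 5 CPM or more. TNRC6C, a partner of Argonaute in silencing, was at 52.8 and 50.9 CPM with siTAZ #1, 20.2 and 21.9 CPM with siTAZ #2 and 24.6 and 22.3 CPM with siNTC (log2 difference 1.30, SE 0.15, FDR 7.64e-06).

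Complement and coagulation genes were mostly lower with siTAZ #1, with 13 of 21 lower and 3 higher. The thrombin receptor F2R was at 473 and 461 CPM with siTAZ #1, 1033 and 1020.0 CPM with siTAZ #2 and 438 and 427 CPM with siNTC. The siTAZ #1 libraries were near the control and the siTAZ #2 libraries above it (log2 difference -1.14, SE 0.09, FDR 3.16e-07). The protein C receptor PROCR and the anticoagulant PROS1 were lower (-1.24 and -1.21), while complement C5 was higher (1.24).

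**Figure D3:**
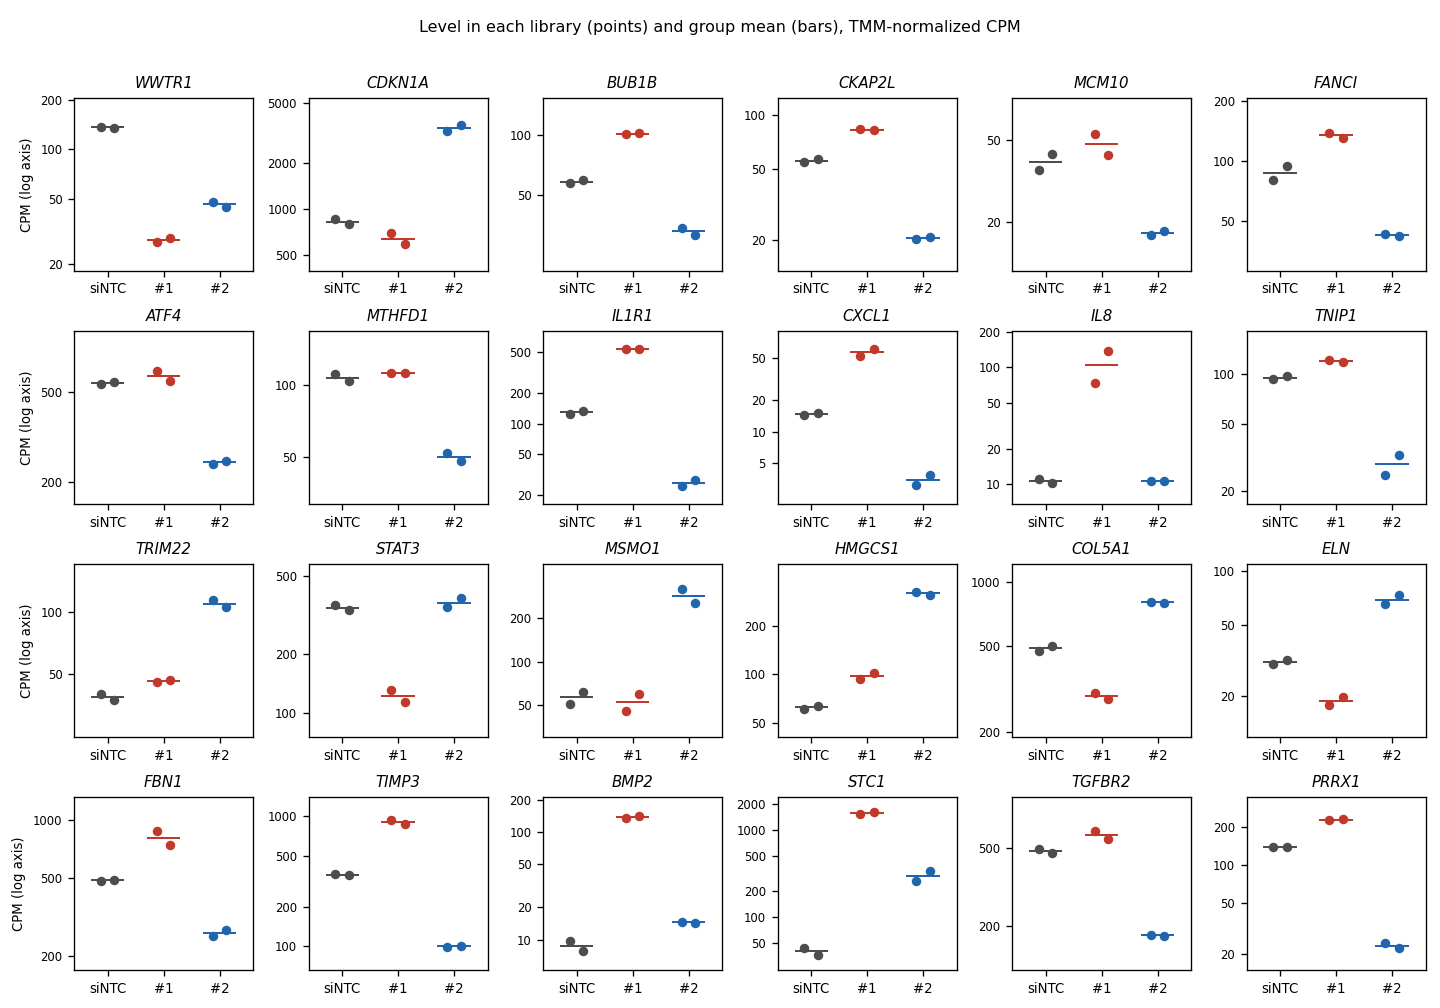
Level of 24 genes in each of the 6 libraries (points) with the group mean (bars), in TMM-normalized CPM on logarithmic axes that differ between panels, for siNTC (grey), siTAZ #1 (red) and siTAZ #2 (blue). In none of the panels do the siTAZ #1 and siTAZ #2 libraries overlap. In MSMO1, CDKN1A and TRIM22 the siTAZ #2 libraries stand apart, in STAT3 the siTAZ #1 libraries, and in IL1R1, COL5A1 and FBN1 the siRNAs lie on opposite sides of siNTC.

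Extracellular matrix genes separated the siRNAs in both directions, with 57 of 213 tested genes higher with siTAZ #1 and 74 lower. Fibrillar collagens, which bear tension in the interstitium, had 5 of 11 members lower and 1 higher (3 lower without siTAZ #2 replicate 2). COL5A1, which nucleates collagen I fibrils, was at 304 and 284 CPM with siTAZ #1, 807 and 800.4 CPM with siTAZ #2 and 477 and 502 CPM with siNTC. The siTAZ #1 libraries were below the control and the siTAZ #2 libraries above it (log2 difference -1.45, SE 0.10, FDR 4.91e-08). COL11A1 was lower too (log2 difference -1.59, SE 0.11, FDR 5.59e-08), and COL5A3 was higher (log2 difference 1.41, SE 0.16, FDR 5.19e-06). Among the other collagens, 6 of 19 were lower and 4 higher (2 higher without siTAZ #1 replicate 2 and 1 without either siTAZ #2 library). COL6A1, of the beaded filaments, was at 1131 and 1170.5 CPM with siTAZ #1, 2600.1 and 2647 CPM with siTAZ #2 and 1703 and 1891 CPM with siNTC (log2 difference -1.19, SE 0.09, FDR 1.64e-07). Of the enzymes that modify and crosslink collagen, 9 of 24 were lower and 4 higher, with LOXL2 at 667 and 581 CPM with siTAZ #1, 1390.2 and 1603 CPM with siTAZ #2 and 764 and 802 CPM with siNTC (log2 difference -1.26, SE 0.11, FDR 3.7e-07) and its relative LOX higher with siTAZ #1 (log2 difference 0.59, SE 0.12, FDR 0.000936).

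Laminins and other basement membrane genes had 10 of 18 members lower with siTAZ #1 and 4 higher. LAMB2 was at 365 and 330.3 CPM with siTAZ #1, 732 and 777 CPM with siTAZ #2 and 332 and 349.5 CPM with siNTC, near the control with siTAZ #1 and above it with siTAZ #2 (log2 difference -1.12, SE 0.10, FDR 7.61e-07). NID2, a linker of laminin and collagen IV, was at 472 and 389 CPM with siTAZ #1, 92 and 95.9 CPM with siTAZ #2 and 534 and 513 CPM with siNTC, somewhat below the control with siTAZ #1 and far below it with siTAZ #2 (log2 difference 2.20, SE 0.12, FDR 6.08e-09). Of 16 elastic fibre genes, 7 were lower and 4 higher, and their median of -0.19 became 0.09 with an offset for GC content. ELN, the elastin itself, was at 17.7 and 19.6 CPM with siTAZ #1, 65.2 and 72.8 CPM with siTAZ #2 and 30.1 and 31.7 CPM with siNTC (log2 difference -1.88, SE 0.15, FDR 1.69e-07), while the microfibril protein FBN1 was at 872 and 742 CPM with siTAZ #1, 254 and 271 CPM with siTAZ #2 and 485 and 489.9 CPM with siNTC (log2 difference 1.62, SE 0.11, FDR 4.2e-08) and FBN2 differed by 1.73 in the same direction as FBN1.

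Fibronectin, thrombospondin and matricellular genes, the last of which signal to cells rather than bear load, had 6 of 18 members lower and 3 higher. POSTN was at 926 and 1026 CPM with siTAZ #1, 352 and 374 CPM with siTAZ #2 and 509.9 and 501 CPM with siNTC, above the control with siTAZ #1 and below it with siTAZ #2 (log2 difference 1.43, SE 0.10, FDR 6.74e-08), and SPOCK1 was at 9.55 and 8.90 CPM with siTAZ #1, 61 and 64.3 CPM with siTAZ #2 and 25.6 and 29.9 CPM with siNTC (log2 difference -2.77, SE 0.16, FDR 1.23e-08). Of the 5 CCN family members tested, NOV was at 154 and 173 CPM with siTAZ #1, 9.30 and 12.1 CPM with siTAZ #2 and 53.6 and 47.2 CPM with siNTC (log2 difference 3.94, SE 0.16, FDR 3.3e-10) and CTGF was higher with siTAZ #1 too (0.55), while CYR61 and WISP1 were lower (-0.47 and -1.39, WISP1 named after its values were seen). Of 6 small leucine-rich proteoglycans tested, LUM and DCN were higher (1.37 and 0.91) and 3 were lower (1 without siTAZ #2 replicate 1). Heparan and chondroitin sulfate genes had 13 of 37 members higher and 13 lower. SDC4 was lower with siTAZ #1, at 97.6 and 97.7 CPM with siTAZ #1, 364 and 339 CPM with siTAZ #2 and 212 and 218 CPM with siNTC (log2 difference -1.85, SE 0.11, FDR 1.11e-08), and SDC1, of the same family of membrane proteoglycans, was higher, at 332 and 319 CPM with siTAZ #1, 126 and 122 CPM with siTAZ #2 and 195 and 201 CPM with siNTC (log2 difference 1.39, SE 0.10, FDR 1.25e-07).

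Matrix proteases and their inhibitors included some of the widest gaps. TIMP3, a matrix-bound inhibitor of metalloproteases (chromosome 22, 33197691 to 33259028), was at 943 and 874 CPM with siTAZ #1, 98.5 and 101 CPM with siTAZ #2 and 360.1 and 353 CPM with siNTC. The siRNAs lay on opposite sides of the control (log2 difference 3.19, SE 0.11, FDR 5.96e-11). MMP1, the interstitial collagenase, was at 2302 and 2372 CPM with siTAZ #1, 640.0 and 697 CPM with siTAZ #2 and 812 and 711 CPM with siNTC (log2 difference 1.81, SE 0.10, FDR 8.68e-09), and in this list 6 of 15 genes were higher and 3 lower. ADAMTS proteases had 5 of 18 higher and 7 lower, with the aggrecanases ADAMTS5 and ADAMTS4 higher (2.70 and 1.88) and ADAMTS14, a procollagen peptidase, lower (-1.91). Of 14 plasminogen activators and serpins, 5 were higher and 1 lower (2 without siTAZ #1 replicate 1 and 0 without siTAZ #2 replicate 2). The share of this list called, 42.9%, was near the 44% among genes at 5 CPM or more. PLAT, the tissue activator, was at 1245 and 1293 CPM with siTAZ #1, 529.9 and 685 CPM with siTAZ #2 and 129 and 127 CPM with siNTC, above the control with both siRNAs (log2 difference 1.06, SE 0.12, FDR 4.48e-06). Of 14 hyaluronan and large proteoglycan genes, 4 were higher and 4 lower, and KIAA1199, which takes part in hyaluronan breakdown, and the synthase HAS2 differed by 2.37 and 1.54.

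Of 181 genes of the cytoskeleton and adhesion, 65 were higher with siTAZ #1 and 41 lower. Smooth muscle contractile genes had 11 of 28 members higher and 2 lower. Their share called, 46.4%, was near the 44% among genes at 5 CPM or more, and 39.3% were higher against 22.7% there. MYLK, the kinase that starts myosin contraction, was at 1323 and 1269 CPM with siTAZ #1, 273 and 263 CPM with siTAZ #2 and 1325 and 1412 CPM with siNTC. The siTAZ #1 libraries were just under the control and the siTAZ #2 libraries far below it (log2 difference 2.27, SE 0.10, FDR 6.27e-10). ACTA2, the myofibroblast actin, was at 308 and 261 CPM with siTAZ #1, 106 and 115 CPM with siTAZ #2 and 186 and 197 CPM with siNTC (log2 difference 1.37, SE 0.12, FDR 4.09e-07), while the coactivator MYOCD was lower (log2 difference -1.64, SE 0.22, FDR 2.82e-05). Integrins and focal adhesion proteins had 11 of 37 higher (7 without siTAZ #2 replicate 1) and 13 lower. The fibronectin receptor subunit ITGA5 was at 314 and 267 CPM with siTAZ #1, 1049 and 1188 CPM with siTAZ #2 and 1133 and 1090.2 CPM with siNTC (log2 difference -1.95, SE 0.11, FDR 1.05e-08), and the collagen receptor subunit ITGA2 at 799 and 942 CPM with siTAZ #1, 254 and 269 CPM with siTAZ #2 and 157 and 132 CPM with siNTC (log2 difference 1.74, SE 0.12, FDR 4.91e-08). ITGB3 and ITGB8 were lower (-1.58 and -1.53).

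Actin nucleation genes had 13 of 36 higher and 8 lower, with the formins DIAPH1 and DIAPH3 higher (1.51 and 1.38). Of 16 tubulins and their partners, 9 were higher and 4 lower (2 lower without any 1 library other than siTAZ #1 replicate 2 or siTAZ #2 replicate 2). MAPRE1, which tracks growing microtubule ends, was at 74.8 and 87 CPM with siTAZ #1, 177 and 155 CPM with siTAZ #2 and 189.8 and 184 CPM with siNTC (log2 difference -1.03, SE 0.12, FDR 7.52e-06), while the tubulin TUBB was higher (0.59). Caveolins and cavins had 3 of 10 higher and 2 lower (1 without siTAZ #1 replicate 2 or either siTAZ #2 library), and cadherins and nectins 5 of 22 higher (3 to 8 with 1 library left out) and 6 lower (3 without siTAZ #1 replicate 2 or siTAZ #2 replicate 2), with CDH6 lower (log2 difference -2.06, SE 0.15, FDR 1.15e-07).

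Genes of the Hippo pathway and the targets of its effectors did not move as a group. Of 25 Hippo genes, 9 were higher with siTAZ #1 and 7, WWTR1 included, lower. AJUBA, which restrains the LATS kinases, was at 45.3 and 45 CPM with siTAZ #1, 144 and 142 CPM with siTAZ #2 and 110.1 and 106 CPM with siNTC (log2 difference -1.67, SE 0.11, FDR 4.91e-08), and the TEAD partner TEAD2 was lower as well (-1.09), while PTPN14 was higher (1.15). Of 22 canonical YAP/TAZ targets, 19 were called (86.4%), 9 higher and 10 lower, so that their median was -0.05, with values from -0.30 to 0.14 over the settings tried, and above 0 at a mean count of at least 50 or without siTAZ #1 replicate 2. NT5E was at 1218 and 1296 CPM with siTAZ #1, 592 and 515 CPM with siTAZ #2 and 1131 and 1046 CPM with siNTC (log2 difference 1.18, SE 0.10, FDR 4.61e-07), and GADD45B at 10.02 and 12.9 CPM with siTAZ #1, 38.9 and 36.6 CPM with siTAZ #2 and 25.9 and 23.1 CPM with siNTC (log2 difference -1.70, SE 0.18, FDR 3.28e-06). Both genes lay on opposite sides of the control, NT5E above it with siTAZ #1 and GADD45B above it with siTAZ #2.

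In the TGF-beta pathway, a main driver of fibroblast matrix, 8 of 25 genes were higher with siTAZ #1 and 9 lower. The ligand TGFB1 was at 114 and 138 CPM with siTAZ #1, 316 and 324 CPM with siTAZ #2 and 77.1 and 68 CPM with siNTC, above the control with both siRNAs and further with siTAZ #2 (log2 difference -1.34, SE 0.12, FDR 6.93e-07). The receptor TGFBR2 was at 611 and 556 CPM with siTAZ #1, 179 and 178 CPM with siTAZ #2 and 498 and 471 CPM with siNTC, above the control with siTAZ #1 and below it with siTAZ #2 (log2 difference 1.71, SE 0.10, FDR 1.61e-08). TGFB1 and TGFBR2 thus lay in opposite directions between the siRNAs, but the list did not divide into ligands and receptors. Of the other ligands called, TGFB2 was lower with siTAZ #1 and TGFB3 and INHBA were higher. Of the other receptors called, TGFBR1, TGFBR3 and ACVR2A were higher and ACVRL1 and ENG lower (named after their values were seen). BMP genes had 3 of 19 higher and 3 lower (1 higher without siTAZ #1 replicate 2 or siTAZ #2 replicate 2), a share below the background, yet with wide gaps in 2 ligands. BMP2 was at 135 and 141 CPM with siTAZ #1, 14.6 and 14.3 CPM with siTAZ #2 and 9.73 and 7.85 CPM with siNTC (log2 difference 3.25, SE 0.14, FDR 6.94e-10), and GDF5 at 14.4 and 15.9 CPM with siTAZ #1, 87.2 and 79.8 CPM with siTAZ #2 and 92.2 and 103 CPM with siNTC (log2 difference -2.46, SE 0.13, FDR 7.64e-09). Of 10 BMP and activin antagonists, 4 were higher, FST among them at 304 and 264 CPM with siTAZ #1, 139 and 129 CPM with siTAZ #2 and 596 and 605 CPM with siNTC (log2 difference 1.08, SE 0.11, FDR 2e-06), and 3 lower, FSTL3 among them (-1.23).

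Growth factor lists held large single differences. STC1, a secreted inhibitor of the pregnancy-associated protease that frees IGF, was at 1557 and 1625 CPM with siTAZ #1, 261 and 338 CPM with siTAZ #2 and 43.6 and 36.4 CPM with siNTC. Both siRNAs lay far above the control, siTAZ #1 furthest (log2 difference 2.41, SE 0.13, FDR 6.44e-09), and in the IGF list 5 of 16 genes were higher and 5 lower. The EGF receptor ligands EREG and AREG were at 138 and 178 and at 165 and 179 CPM with siTAZ #1, at 16.4 and 22.2 and at 14.2 and 37.1 CPM with siTAZ #2, and at 27.4 and 19.1 and at 5.91 and 3.34 CPM with siNTC. In EREG siTAZ #2 lay around the control, and in AREG both siRNAs were above it (log2 differences 3.04 and 2.76, FDR 2.69e-08 and 4.07e-06). Of 12 genes of that list, 5 were higher and 2 lower (1 lower without siTAZ #1 replicate 1 or either siTAZ #2 library). FGF and HGF genes had 10 of 20 members higher and 4 lower. HGF, an epithelial growth factor of mesenchyme, was at 593 and 527 CPM with siTAZ #1, 152 and 157 CPM with siTAZ #2 and 348 and 346 CPM with siNTC (log2 difference 1.86, SE 0.11, FDR 1.09e-08), and the feedback inhibitor SPRY1 and the ligand FGF5 differed by 2.25 and 2.50. The 4 lower included FGF7 (-0.46, FDR 0.0419), a call lost without either siTAZ #2 library (FDR 0.207 and 0.0512) and without siTAZ #1 replicate 1 (FDR 0.347), and the count was 1 or 2 without any library other than siTAZ #1 replicate 2.

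PDGF and VEGF genes had 5 of 15 higher and 4 lower, with VEGFC at 127 and 106 CPM with siTAZ #1, 25.3 and 25.2 CPM with siTAZ #2 and 112 and 114 CPM with siNTC (log2 difference 2.21, SE 0.13, FDR 1.23e-08). Notch genes had 6 of 19 higher and 2 lower (1 without any 1 library other than siTAZ #2 replicate 1). The share of Notch genes called, 42.1%, was near the 44% among genes at 5 CPM or more. The ligand DLL4 was at 74.3 and 66.3 CPM with siTAZ #1, 4.80 and 8.70 CPM with siTAZ #2 and 4.73 and 4.25 CPM with siNTC, with siTAZ #1 apart from both other groups (log2 difference 3.398, SE 0.23, FDR 4.91e-08), and JAG1, another ligand, differed by 2.09. Wnt genes had 9 of 30 higher and 7 lower, with WNT5A at 372 ± 28.7 CPM with siTAZ #1, 801 ± 63.1 CPM with siTAZ #2 and 283 ± 9.81 CPM with siNTC (mean ± SD of 2 libraries; log2 difference -1.11, SE 0.10, FDR 1.18e-06). AP-1 and immediate early factors had 9 of 26 higher and 8 lower (5 lower without siTAZ #2 replicate 1 and 3 without siTAZ #2 replicate 2). KLF4 was at 22.9 and 19.97 CPM with siTAZ #1, 1.60 and 3.63 CPM with siTAZ #2 and 23.9 and 30.5 CPM with siNTC, slightly below the control with siTAZ #1 and far below it with siTAZ #2 (log2 difference 3.07, SE 0.30, FDR 1.43e-06), and JUNB was lower with siTAZ #1 (log2 difference -1.39, SE 0.19, FDR 3.09e-05).

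Cholesterol synthesis genes moved 1 way. When sterols are scarce, the factor SREBP2 raises the enzymes of this pathway together. Of 25 genes tested, 18 (72%) were lower with siTAZ #1 and 0 higher, with a median of -0.82. The siNTC mean was below both siRNAs for 13 of the 18 and between them for 5. HMGCS1, at the entry of the pathway (chromosome 5, 43287572 to 43313614), was at 93.9 and 103 CPM with siTAZ #1, 326 and 314 CPM with siTAZ #2 and 61.2 and 63.4 CPM with siNTC. Both siRNAs were above the control, siTAZ #2 far more (log2 difference -1.70, SE 0.11, FDR 3.12e-08). MSMO1, a sterol demethylase (chromosome 4, 166248819 to 166264316), was at 45.2 and 59.9 CPM with siTAZ #1, 316 and 253 CPM with siTAZ #2 and 51.3 and 61.9 CPM with siNTC, and siTAZ #2 alone was above the control (log2 difference -2.43, SE 0.16, FDR 3.12e-08). TM7SF2 and HSD17B7 followed (-1.62 and -1.22), HSD17B7 with a pseudogene that could share its reads. CACCCCAC, a sterol response core, occurred in 1 of 22 promoter windows of the list and in 2.65% of the windows of all genes tested.

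Glycolysis genes had 12 of 23 members lower with siTAZ #1 and 3 higher. ENO2, an enolase, was at 39.3 and 37 CPM with siTAZ #1, 119 and 127 CPM with siTAZ #2 and 52 and 59.2 CPM with siNTC (log2 difference -1.69, SE 0.12, FDR 1.15e-07), ALDOC and PFKFB2 were lower too (-1.15 and -1.54), and TPI1 was higher (log2 difference 0.84, SE 0.11, FDR 2.76e-05). Complex I subunits, of the mitochondrial respiratory chain, had 9 of 35 members lower and 0 higher, a share called below the background. All 9 differed by less than 2-fold. The count was 4 without siTAZ #2 replicate 1 and 5 without siNTC replicate 1. NDUFB2 was at 30.9 and 31.4 CPM with siTAZ #1, 56.1 and 44.3 CPM with siTAZ #2 and 47.2 and 48.9 CPM with siNTC (log2 difference -0.69, SE 0.15, FDR 0.00155). Complexes II to V had 5 of 38 higher (2 without siTAZ #2 replicate 1) and 5 lower (9 without siTAZ #1 replicate 1 and 3 without either siTAZ #2 library), a share below the background. Of 10 arrestin domain and MondoA genes, 5 were lower and 1 higher (0 without siTAZ #1 replicate 1 or siTAZ #2 replicate 1). TXNIP, a glucose-responsive inhibitor of glucose uptake, was at 11.3 and 10.7 CPM with siTAZ #1, 18.1 and 22.6 CPM with siTAZ #2 and 239.5 and 242 CPM with siNTC, far below the control with both siRNAs and lowest with siTAZ #1 (log2 difference -0.89, SE 0.14, FDR 0.000148).

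Ribosome biogenesis factors had 18 of 30 members higher and 4 lower. NOLC1, a nucleolar chaperone, was at 143 and 156 CPM with siTAZ #1, 46.7 and 48.1 CPM with siTAZ #2 and 169 and 184 CPM with siNTC, somewhat below the control with siTAZ #1 and far below it with siTAZ #2 (log2 difference 1.66, SE 0.11, FDR 6.15e-08), and UTP20 and RRP1B differed by 1.40 and 1.37, while BRIX1 was lower (-0.997), though not with the left-out genes in the fit (FDR 0.0803). Of 73 cytosolic ribosomal proteins, 18 (24.7%) were higher and 0 lower, a share called below the 38% of all genes tested. Their median of 0.18 ran from 0.09 to 0.37 over the settings tried. RPS7 was at 233 and 273 CPM with siTAZ #1, 117 and 77.2 CPM with siTAZ #2 and 209.8 and 228 CPM with siNTC (log2 difference 1.38, SE 0.16, FDR 7.87e-06). Many of these genes have processed pseudogenes, so their counts are uncertain. Mitochondrial ribosomal proteins had 7 of 54 higher and 11 lower, a share below the background. Of 17 genes listed as snoRNA hosts, 7 were higher and 1 lower, with a median of 0.52 that ran from 0.41 to 0.69 over the settings tried. The 1 lower was TUG1, a long noncoding RNA that is not an established snoRNA host. It was at 68 and 69.4 CPM with siTAZ #1, 239.6 and 233 CPM with siTAZ #2 and 201 and 215 CPM with siNTC (log2 difference -1.78, SE 0.11, FDR 1.83e-08).

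Transcription factors of mesenchymal identity also separated the siRNAs. PRRX1, a homeobox factor of limb and stromal mesenchyme (chromosome 1, 170631869 to 170708562), was at 229 and 233 CPM with siTAZ #1, 24.1 and 22.2 CPM with siTAZ #2 and 140.2 and 140.0 CPM with siNTC. The siRNAs lay on opposite sides of the control (log2 difference 3.32, SE 0.12, FDR 9.19e-11). Of 15 factors of the TWIST, SNAI, ZEB and PRRX list, 9 were higher with siTAZ #1 and 2 lower (1 without siTAZ #2 replicate 1), with ZEB2 higher (log2 difference 1.46, SE 0.14, FDR 1.32e-06) and TCF4 lower (log2 difference -1.25, SE 0.12, FDR 1.22e-06). Lung mesenchyme factors had 11 of 22 higher and 2, HHIP and PTCH1, lower. These 2 are membrane proteins that bind hedgehog and are induced by it, and PTCH1 was at 21 and 23.6 CPM with siTAZ #1, 64.5 and 59.2 CPM with siTAZ #2 and 25.6 and 32.5 CPM with siNTC (log2 difference -1.47, SE 0.16, FDR 3.81e-06). GLI3, a hedgehog factor that mostly acts as a repressor, was higher (log2 difference 1.49, SE 0.13, FDR 7.01e-07), and SOX9 was higher as well (1.29). HOX genes had 7 of 16 members lower and 0 higher, but the count was 4 without either siTAZ #1 library, 2 without siTAZ #2 replicate 1 and 3 without siTAZ #2 replicate 2, and 4 with an offset for GC content. HOXB5 was at 72.1 and 71.2 CPM with siTAZ #1, 99.1 and 109.9 CPM with siTAZ #2 and 49.4 and 50.7 CPM with siNTC (log2 difference -0.54, SE 0.12, FDR 0.00173).

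The genes that the study listed as lowered by both siRNAs were not of 1 depth. Of the 94 genes, 5 lie among those left out. Of the 89 tested, 32 were higher with siTAZ #1 and 14 lower, and for each of these 46 the siNTC mean was above both siRNAs, which the choice of the list on these libraries fixes. ARL6IP1 was at 42.1 and 41.5 CPM with siTAZ #1, 133 and 102 CPM with siTAZ #2 and 295 and 288 CPM with siNTC (log2 difference -1.49, SE 0.13, FDR 5.29e-07), and HADHA, a subunit of the mitochondrial trifunctional protein, at 107 and 104 CPM with siTAZ #1, 37.9 and 37.5 CPM with siTAZ #2 and 191 and 196 CPM with siNTC (log2 difference 1.48, SE 0.11, FDR 1.41e-07). The first was lowered further with siTAZ #1 and the second with siTAZ #2. Of 12 fibroblast markers, 4 were higher with siTAZ #1 and 2, COL1A1 and THY1, lower. PDGFRA was at 1418 and 1439 CPM with siTAZ #1, 489 and 564 CPM with siTAZ #2 and 463 and 416 CPM with siNTC (log2 difference 1.44, SE 0.10, FDR 9.48e-08). COL1A1 was at 5735 and 5832 CPM with siTAZ #1, 10815 and 11325 CPM with siTAZ #2 and 9241 and 10058 CPM with siNTC. Of 12 reference genes, TFRC, RPLP0 and B2M were higher and POLR2A lower, while GAPDH was at 2349 and 2269 CPM with siTAZ #1, 2715 and 2442 CPM with siTAZ #2 and 2446 and 2493 CPM with siNTC and was not called (FDR 0.176).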

How the data were processed

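RNA of HFL-1 cells was sequenced on an Ion Proton. The deposited values are raw counts of reads per gene symbol, which the authors made by mapping reads to hg19 and counting them with HTSeq 0.6.1. The strand setting and counting mode are not given in the sources used here, so overlapping and antisense genes, and genes with near-identical copies or pseudogenes, are uncertain.

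Symbols were placed on GRCh37 by symbol (19556) or synonym (1922), and 1877 without a position were kept. The 1171 genes of the nearly missing region were removed before library sizes were computed, leaving totals of 15087670 to 31998591 counts, and 13 symbols that a spreadsheet had turned into dates were left out. Counts of the 6 libraries were filtered with filterByExpr, scaled by TMM and tested with edgeR 4.0.16 (R 4.3.3) by the quasi-likelihood test, with 3 residual degrees of freedom and Benjamini-Hochberg adjustment (FDR, threshold 0.05). Every FDR printed is from this test unless another setting is named. With 2 libraries a group, an exact two-sided permutation test of a single value cannot go below 0.333, so none was run. The interval of a count ratio is exact and conditional, and covers counting error only. In data simulated for this comparison, 200 of 13455 genes, drawn from those with a mean count of 50 or more, were changed 2-fold. Of the changed genes 79% were recovered, and 12 others were called. Recovery of genes with fewer counts was not simulated, and far fewer genes were changed than the 38% called here.

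The genes compared, the gene lists and the tests were chosen with earlier results of these data known. Named were WWTR1, the 10 largest non-overlapping called differences in each direction with a mean of 10 CPM or more in the siRNA group where they were higher, a minimum that a gene can pass through that group alone, up to 4 called members of each list with a mean of 5 CPM or more over the 4 siTAZ libraries, with 1 of each direction, and a few genes of the study, with exceptions stated beside them. Alternatives were DESeq2 1.42.0, edgeR's exact test, other scalings, filters and gene sets, offsets for GC content and length, thinning, a replicate block and each library left out. Whether libraries of equal replicate number deviate together was checked by the correlation of deviations from group means, and no sign of it was seen. Some genes and 1 gene list are not reported here.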

Additional observations from a re-analysis of the deposited data

How the results depend on the processing

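The count of genes higher with siTAZ #1, 2614, and the count lower, 2499, stayed within 1.5 times under all 22 alternatives. Leaving out 1 library gave 2001 to 2571 higher and 1772 to 2449 lower. With DESeq2 the counts were 2614 and 2459, with the left-out genes in the fit 2137 and 1871, and at an FDR under 0.1 they were 3087 and 2973. The share higher among the genes called ran from 46.7% (upper-quartile scaling) to 53.3%, against 51.1%. Of 346 named genes called, 312 were called under every alternative and 0 changed sign, and 34 lost the call at least once, most often without siTAZ #2 replicate 1 (19 genes), without siTAZ #2 replicate 2 (18) and with the left-out genes in the fit (18). COL1A2, not called (FDR 0.0739), was called under 8 alternatives.

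Pairing of libraries by equal replicate numbers was not seen in the values, which cannot show how the libraries were made. Deviations of same-numbered libraries correlated at -0.003 for siNTC with siTAZ #1, 0.012 for siNTC with siTAZ #2 and -0.27 for siTAZ #1 with siTAZ #2. The last value means that oppositely numbered siTAZ libraries deviated together in part, which the main test leaves out of account. With a replicate block the counts were 2339 and 2228. With the numbers of one siRNA crossed, an alternative chosen after seeing the data, they were 2901 and 2780.

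Besides the counts given with the lists, NRF2 genes lower fell from 7 to 4 without siTAZ #2 replicate 2, and metallothionein genes lower from 8 to 5 without siTAZ #1 replicate 2 or siTAZ #2 replicate 1. The median of the ADAMTS list turned from -0.26 to 0.02 without siTAZ #1 replicate 2 and that of the hyaluronan list from 0.57 to -0.07 without siTAZ #2 replicate 1. Depth limits genes of a few counts, such as IL1B with siTAZ #2.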

Other observations

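Of 18 metallothioneins and metal transporters, 8 were lower with siTAZ #1 (5 without siTAZ #1 replicate 2 or siTAZ #2 replicate 1) and 2 higher (1 without siTAZ #1 replicate 2 or either siTAZ #2 library), with a median log2 difference of -0.73. MT2A, a metallothionein, was at 151 and 208 CPM with siTAZ #1, 547 and 482 CPM with siTAZ #2 and 272 and 271 CPM with siNTC, and the siRNAs lay on opposite sides of the control (log2 difference -1.52, SE 0.14, FDR 6.93e-07). The zinc carrier SLC39A10 was lower too (log2 difference -1.73, SE 0.16, FDR 9.38e-07). MT2A has near-identical relatives, so its counts are uncertain. Antioxidant genes of the factor NRF2 had 7 of 30 members higher and 7 lower (4 lower without siTAZ #2 replicate 2), a share near the background of 44% among genes at 5 CPM or more. ME1, which supplies NADPH, was at 27.7 and 32.8 CPM with siTAZ #1, 127 and 123 CPM with siTAZ #2 and 75.4 and 86.5 CPM with siNTC (log2 difference -2.03, SE 0.13, FDR 3.17e-08), and TXN, the thioredoxin, at 109 and 144 CPM with siTAZ #1, 62.1 and 43.9 CPM with siTAZ #2 and 110.5 and 104 CPM with siNTC (log2 difference 1.26, SE 0.16, FDR 2.23e-05). Of 30 lysosome and autophagy genes, 9 were higher and 10 lower. SQSTM1, the autophagy receptor p62, was at 234 and 199 CPM with siTAZ #1, 756 and 853 CPM with siTAZ #2 and 697 and 704 CPM with siNTC, with siTAZ #1 far below both other groups (log2 difference -1.89, SE 0.11, FDR 1.24e-08). Of 16 alcohol and aldehyde dehydrogenases, 3 were higher and 4 lower, a share called of 43.8% against the same 44%. ALDH7A1 was at 6.75 and 8.09 CPM with siTAZ #1, 37.7 and 28 CPM with siTAZ #2 and 24.3 and 23.9 CPM with siNTC (log2 difference -2.13, SE 0.20, FDR 1.09e-06) and ALDH1B1 at 35.5 and 34.9 CPM with siTAZ #1, 11.7 and 11.2 CPM with siTAZ #2 and 42.8 and 47 CPM with siNTC (log2 difference 1.62, SE 0.16, FDR 1.45e-06).

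Of 21 hypoxia-induced genes, 5 were higher and 5 lower, and the number lower ran from 2 with the left-out genes in the fit to 10 at an FDR under 0.1, with 7 without siTAZ #1 replicate 2 and 8 with an offset for GC content. The share called of this list, 47.6%, was near the background of 44% among genes at 5 CPM or more. EPAS1, the hypoxia factor HIF-2 alpha, was at 547 and 518 CPM with siTAZ #1, 91 and 92.2 CPM with siTAZ #2 and 312 and 308 CPM with siNTC and lay above the control with siTAZ #1 and below it with siTAZ #2 (log2 difference 2.54, SE 0.11, FDR 4.87e-10). BHLHE40, a circadian repressor, was at 31.4 and 33.3 CPM with siTAZ #1, 134 and 129.5 CPM with siTAZ #2 and 34.2 and 44 CPM with siNTC, and siTAZ #2 stood apart (log2 difference -2.02, SE 0.14, FDR 5.19e-08). Of 28 genes of fatty acid synthesis and lipid handling, 4 were higher and 9 lower, with 46.4% called, near the same background. PPARG, the adipogenic nuclear receptor, was at 66.6 and 62.1 CPM with siTAZ #1, 16 and 18.2 CPM with siTAZ #2 and 37.5 and 38.1 CPM with siNTC (log2 difference 1.92, SE 0.14, FDR 1.41e-07), while ELOVL4, which lengthens fatty acids, was lower with siTAZ #1 (log2 difference -2.65, SE 0.23, FDR 5.34e-07). Guidance genes had 8 of 33 higher and 7 lower, with 45.5% called and so also near that background. The receptor EPHA4 was at 46.6 and 44.9 CPM with siTAZ #1, 139.7 and 144 CPM with siTAZ #2 and 116 and 111 CPM with siNTC (log2 difference -1.63, SE 0.11, FDR 6.15e-08) and EFNB2, an ephrin ligand, at 61 and 64.9 CPM with siTAZ #1, 23.8 and 20.2 CPM with siTAZ #2 and 54.6 and 58.8 CPM with siNTC (log2 difference 1.52, SE 0.14, FDR 9.2e-07). Of 21 nicotinic receptor and neuronal channel genes, 3 were higher and 5 lower, a share called of 38.1% against 38% of all genes tested. CHRNA1, the muscle acetylcholine receptor subunit, was at 15.7 and 12.9 CPM with siTAZ #1, 35.6 and 42.6 CPM with siTAZ #2 and 0.854 and 0.523 CPM with siNTC, far above the control with both siRNAs and highest with siTAZ #2 (log2 difference -1.46, SE 0.20, FDR 3.9e-05).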
